A study of Mus musculus with 6 samples.

Results

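The 9 genes described here encode transcription factors that set the identity of macrophages: Spi1, Cebpb, Irf8, Irf4, Maf, Klf2, Klf4, Runx3 and Zeb2. They were chosen by symbol, and all 9 have a row among the 14097 genes of the deposited table and passed the filter of 50 normalized counts in at least 1 library, as did 11067 genes in all. Values were read in 6 RNA-seq libraries of colonic lamina propria P3/P4 MΦs, sorted as CD45+CD11b+CD11cintCD103-CD64+Ly6C-MHCII+ cells, with 1 library for each genotype at 1, 3 and 12 weeks of age. The genotypes were Il10rb-/- (KO), which lack the second chain of the IL10 receptor, and littermate Il10rb+/- (Het), so the control mice also carried 1 mutant allele. All mice were untreated 129SvEv animals of either sex, and the mutation was not restricted to MΦs. Each library came from 1 mouse at 3 and 12 weeks and from a pool of 3 to 5 mice at 1 week by the labels, and colitis was present in Il10rb-/- mice from about week 3, so the genotype and the inflamed tissue cannot be told apart from then on.

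There were no replicate libraries of any group. Depth was between 6700337 reads (Het, 3 weeks) and 40754971 reads (Het, 12 weeks) on the listed genes. Il10rb lay at 939 to 1221 normalized counts in the 3 Het libraries and at 12.0 to 27.4 in the 3 KO libraries. The sorted cells carried the MΦ transcripts Csf1r (46878 to 80123 normalized counts) and Fcgr1, which encodes CD64 (1285 to 2043), in all 6 libraries. The 12-week KO library stood apart. Its 13 resident MΦ markers summed to 50677 normalized counts against 166573 to 192705 in the other 5 libraries, with Adgre1 (F4/80) at 3800 against 16537 to 25071 and Cx3cr1 at 906 against 8074 to 20086. Its neutrophil markers summed to 13341 against 1599 to 2409, with S100a8 at 1673 against 12.8 or less. Its dendritic cell markers summed to 39875 against 3008 to 12015, but nearly all of the 39875 came from Ccr7. Of the 6 dendritic cell markers past the filter, 4 were higher and 2 lower than in the 12-week Het library. The part of these cells in the results below was not tested, and in bulk RNA fewer cells of a type and less RNA per cell cannot be told apart.

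In the myeloid lineage, PU.1 (the product of Spi1) opens enhancers early and works with C/EBP and IRF factors to set the common macrophage program. Factors such as c-Maf, Klf2, Klf4 and Zeb2 then act on this program in tissue MΦs, where they are known for holding cells in a mature and quiescent state. From about weaning on, intestinal MΦs are renewed from blood monocytes and take on high CX3CR1 and IL10 as they mature through the P1 to P4 stages.

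RefSeq promoter entries (GRCm38.p6) were matched for 7 of the 9 genes, with 12 windows of 250 bases before a start site. The windows of Klf2, Klf4, Irf4 and Cebpb are shown because the first 3 were lower and Cebpb higher in the 12-week KO library than in its Het control, and because Klf2 and Klf4 were both higher at 3 weeks than at 1 week. Capitals mark the GC box GGGCGG on either strand, the site that Sp1 and Krüppel-like factors bind.
Klf2, chr8:72318812-72319061, plus strand: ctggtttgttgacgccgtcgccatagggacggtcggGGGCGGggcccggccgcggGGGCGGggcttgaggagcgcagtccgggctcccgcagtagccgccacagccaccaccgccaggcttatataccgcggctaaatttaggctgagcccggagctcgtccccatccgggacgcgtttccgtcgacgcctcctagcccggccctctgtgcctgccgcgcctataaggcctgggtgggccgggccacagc
Klf4, chr4:55532476-55532725, minus strand: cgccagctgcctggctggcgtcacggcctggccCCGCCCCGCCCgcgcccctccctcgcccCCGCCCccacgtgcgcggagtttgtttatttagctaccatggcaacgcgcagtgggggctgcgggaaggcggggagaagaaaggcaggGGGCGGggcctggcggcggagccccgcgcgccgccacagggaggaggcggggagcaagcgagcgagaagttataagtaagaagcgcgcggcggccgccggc
Irf4, chr13:30748983-30749232, plus strand: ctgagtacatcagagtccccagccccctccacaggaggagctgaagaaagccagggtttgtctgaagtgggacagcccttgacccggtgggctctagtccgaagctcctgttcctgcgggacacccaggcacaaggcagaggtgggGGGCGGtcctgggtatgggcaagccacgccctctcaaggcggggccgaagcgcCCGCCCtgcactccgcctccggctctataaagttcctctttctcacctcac
Cebpb, chr2:167688665-167688914, plus strand: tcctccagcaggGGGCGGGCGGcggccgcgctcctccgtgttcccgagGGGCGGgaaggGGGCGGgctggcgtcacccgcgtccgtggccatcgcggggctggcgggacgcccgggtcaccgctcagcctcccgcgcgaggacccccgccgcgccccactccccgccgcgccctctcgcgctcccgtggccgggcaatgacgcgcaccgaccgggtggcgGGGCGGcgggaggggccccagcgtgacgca

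A GC box was present in 9 of the 12 windows and in 32.7% of the 32851 windows of the same length in the RefSeq table. It occurred 2 times in the Klf2 window, 4 times in that of Klf4, 2 times in that of Irf4 and 5 times in that of Cebpb, with overlapping copies in Klf4 and Cebpb. The 4 windows are rich in G and C, at 71.2% for Klf2, 74.0% for Klf4, 63.6% for Irf4 and 81.6% for Cebpb, against a median of 52.4% over all windows. The shorter CACCC box, also bound by Krüppel-like factors, was found in 7 of 12 windows (52.0% of all windows). The STAT site TTCNNNGAA, the type of element read by the STAT factors that cytokine receptors activate, was found in 3 of 12 (7.02% of all) and in none of the 4 windows shown. The windows with a STAT site were overlapping windows of Zeb2, which share most of their bases, and a window of Irf8. The AP-1 site TGANTCA was found in 1 of 12 (6.75%), the TATA box TATAAA in 2 of 12 (12.4%) and the PU.1 site GAGGAAGT in 0 of 12 (2.44%). Both strands were searched, and 4 of the 12 windows belong to Zeb2, 2 to Runx3 and 2 to Irf8, some of which overlap. These matches describe letters only.

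Per kilobase of exon, Cebpb was the most abundant of the 9 transcripts in all 6 libraries, at 15141 to 60376 normalized counts per kb, and Klf2 was next in all 6, at 4080 to 21850. Spi1 (2446 to 4462 per kb) and Klf4 (1621 to 5051) followed and exchanged places between libraries, and Irf8 (994 to 1755) came after them in each. The remaining 4 genes were the lowest of the 9 in every library. Zeb2 lay at 381 to 429 per kb, Runx3 at 292 to 914, Irf4 at 164 to 720 and Maf at 31.2 to 509. Irf4 was last in both genotypes at 1 and 3 weeks, and Maf was last in both at 12 weeks. Several of these neighbours cannot be ordered without replicates, such as Zeb2 and Maf in the 3-week Het library (427 and 425 per kb). In the 12-week KO library the level of Maf per kb was above 27.2% of the 11063 genes with a length, and above 75.4% in the 12-week Het library.

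**Figure D1:**
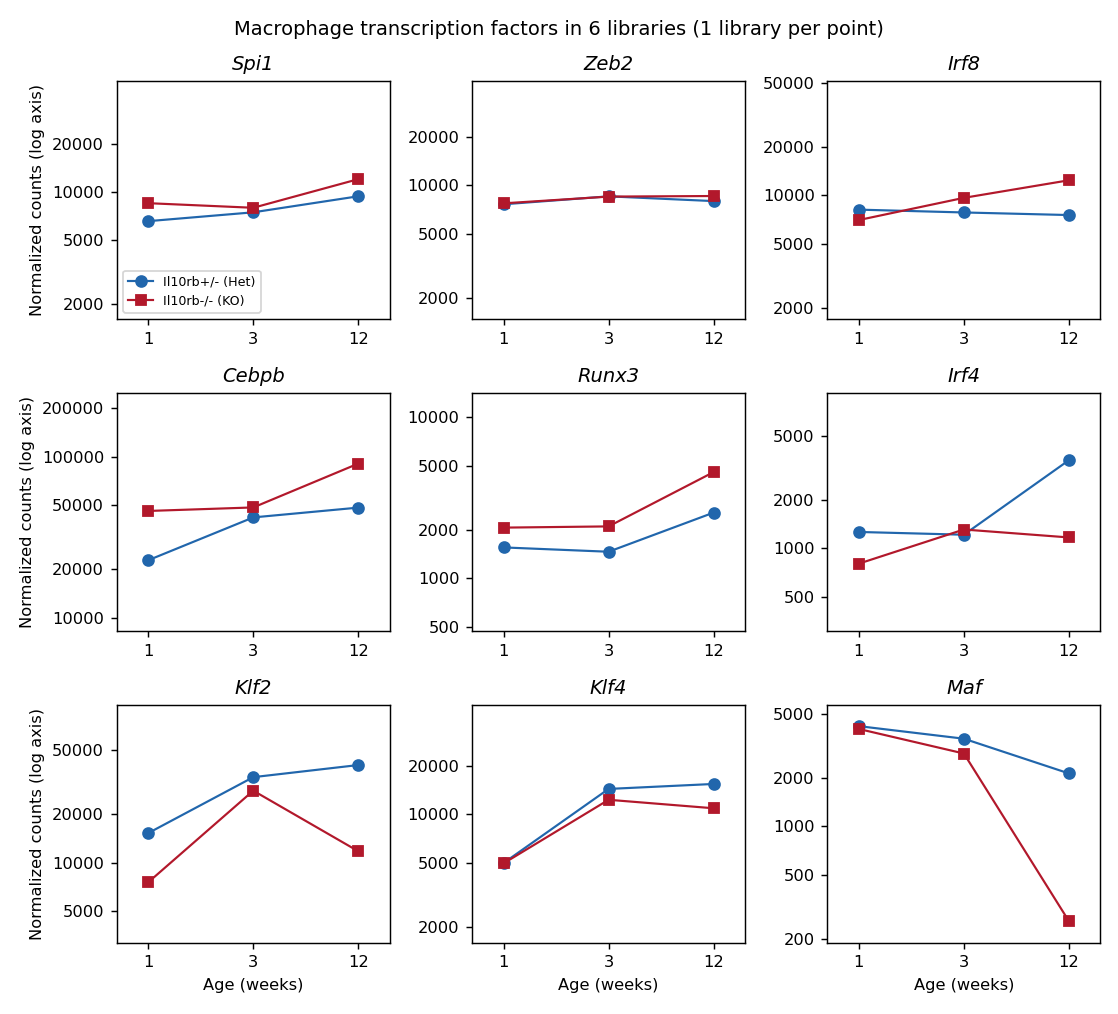
Normalized counts of the 9 genes (vertical log axis, the same fold span in every panel) at 1, 3 and 12 weeks of age (horizontal axis, equally spaced) in Het (blue circles) and KO (red squares) libraries, 1 library per point and no error bars because there are no replicates. Zeb2 is nearly flat (highest over lowest 1.13, against 1.82 for Spi1 and 1.77 for Irf8), Klf2 and Klf4 are higher at 3 weeks than at 1 week in both genotypes, and Maf is at 257 in the 12-week KO library against 2132 to 4194 elsewhere.

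The first question was how the loss of Il10rb bears on these factors at each age. At the ages of 1 and 3 weeks none of the 9 genes differed by over 3-fold between KO and Het, the fold the study used as its threshold, where 3.5% and 1.98% of the 11067 genes did. At 12 weeks 3 of 9 did, Maf, Klf2 and Irf4, all lower in KO, where 14.0% of all genes were past 3-fold, 4.03% higher and 9.99% lower. The median log2 ratio of the 9 genes was -0.01, 0.09 and 0.10 from the youngest to the oldest age, beside -0.04, 0.02 and 0.04 over all genes. The counting interval (exact, 95%, covering read sampling only) excluded 0 for 22 of the 27 ratios, which compares pairs of libraries and not the genotypes. These intervals were computed for the 9 genes only, so no share over all genes stands beside this count and it does not set the 9 apart. Irf4 lay just past the 3-fold line at 12 weeks, and Klf4 was the next gene inside it among those lower in KO.

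**Figure D2:**
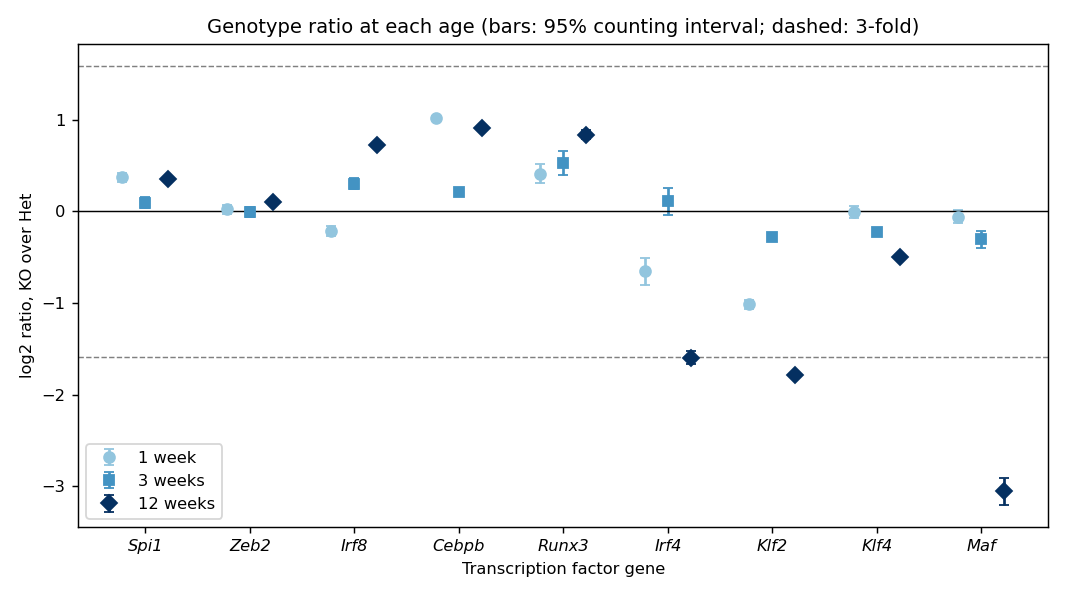
Log2 ratio of KO over Het (vertical axis) for the 9 genes (horizontal axis) at 1 week (light circles), 3 weeks (squares) and 12 weeks (dark diamonds), with bars for the 95% counting interval and dashed lines at 3-fold. The 12-week points of Irf4, Klf2 and Maf lie at -1.60, -1.78 and -3.05, and the other 24 points lie between the dashed lines.

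Maf, which encodes c-Maf, a factor known for driving Il10 transcription and for limiting MΦ self-renewal, showed the widest range of the 9. It was at 4194, 3504 and 2132 normalized counts in Het and at 4028, 2835 and 257 in KO MΦs at 1, 3 and 12 weeks. The level was lower at each later age in both genotypes, and the 12-week KO library held the lowest value by a wide gap. KO and Het differed by -0.06 on the log2 scale at 1 week (interval -0.13 to 0.01) and by -0.31 at 3 weeks (-0.40 to -0.22). At 12 weeks Maf was 8.29-fold lower in KO (log2 ratio -3.05, -3.20 to -2.90, from 404 and 4509 reads), below the ratio of all but 3.98% of genes. The small Maf proteins Maff, Mafg and Mafk, named here after their values were seen, lack an activation domain, and their log2 ratios at 12 weeks ran from -0.33 to 0.21.

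Klf2, a Krüppel-like factor known for quiescence in T cells, endothelium and monocytes, was lower in KO than in Het at each age. Its values were 15236, 33931 and 40356 in Het and 7535, 27961 and 11747 in KO. The Het level was highest at 12 weeks, while the KO level at 12 weeks was nearer to that at 1 week than to that at 3 weeks. The log2 ratios were -1.02 (-1.06 to -0.97), -0.28 (-0.31 to -0.25) and -1.78 (-1.80 to -1.76), the last a 3.44-fold lower level. At 1 week this was below the ratio of all but 2.13% of genes. Klf4, which takes part in monocyte differentiation and alternative activation, was at 4967, 14343 and 15401 in Het and at 4943, 12281 and 10875 in KO. Its log2 ratios were -0.01, -0.22 and -0.50, and the interval at 1 week (-0.07 to 0.06) included 0. Klf4 thus lay below Klf2 at every age and differed less between the genotypes. None of the 6 other Krüppel-like genes on the list was past 3-fold at 12 weeks.

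The IRF genes differed in their direction. Irf4, known for plasma cell and dendritic cell fates and for the alternative activation of MΦs, was at 1263, 1214 and 3528 in Het and at 803, 1308 and 1168 in KO. The 12-week Het library was the highest, and the other 5 lay between 803 and 1308. At 12 weeks Irf4 was 3.02-fold lower in KO (log2 ratio -1.60, -1.67 to -1.52), at 3 weeks the interval included 0 (0.11, -0.04 to 0.26), and at 1 week the ratio was -0.65 (-0.80 to -0.51). B and plasma cell markers were also highest in the 12-week Het library. Their 8 transcripts summed to 18304 in the 12-week Het library, 7471 in the 12-week KO library and 994 to 2340 in the other 4, and 7 of 8 were over 3-fold lower in KO than in Het at 12 weeks. Cd79a was at 1483 and 208 and Jchain, the joining chain of secreted antibody, at 13325 and 1359. Sdc1 was the exception, at 634 in Het and 5560 in KO. The part of B and plasma cells in the Irf4 values was not tested.

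Irf8, needed for monocyte and dendritic cell development and a partner of PU.1 at interferon response genes, was at 8134, 7812 and 7528 in Het and at 7010, 9630 and 12384 in KO. The Het libraries stayed within 7528 to 8134, and the KO level was higher at each later age, a step that from 3 to 12 weeks went from 0.36 to -0.05 under scaling by total reads. The log2 ratio was -0.21 (-0.27 to -0.16) at 1 week, 0.30 (0.25 to 0.36) at 3 weeks and 0.72 (0.69 to 0.75) at 12 weeks. Irf8 exceeded Irf4 per kb in every library, by 7.37-fold in the 12-week KO library and by 1.48-fold in the 12-week Het library. Irf7, which amplifies type I interferon, was the 1 of 6 other IRF genes past 3-fold at 12 weeks, at 616 in Het and 2380 in KO (log2 ratio 1.95).

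Cebpb, a basic leucine zipper factor of monocyte survival and inflammatory activation, was higher in KO at each age. It was at 22772, 42032 and 48356 in Het and at 46097, 48478 and 90806 in KO. The 1-week Het library held the lowest value and the 12-week KO library the highest, with the other 4 within 42032 to 48478. The log2 ratios were 1.02 (0.99 to 1.04), 0.21 (0.18 to 0.23) and 0.91 (0.90 to 0.92), and the 1-week ratio was above that of 95.4% of genes. Cebpa, its relative in granulocyte and monocyte specification, was at 2815 in Het and 763 in KO at 12 weeks, a log2 ratio of -1.88, so the Cebpb over Cebpa ratio per kb was 30.1 and 208. Tmem189 overlaps Cebpb on the opposite strand in the annotation, and the Cebpb over Tmem189 ratio of normalized counts stayed within 2.55 to 2.73 in the 6 libraries. As the strand setting of the counting is not given in the sources used here, reads of this pair cannot be told apart.

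Spi1 was at 6592, 7481 and 9412 in Het and at 8525, 7983 and 12025 in KO. Its log2 ratios were 0.37 (0.32 to 0.42), 0.09 (0.03 to 0.15) and 0.35 (0.32 to 0.38), and the highest library was 1.82 times the lowest. Its ETS relatives Spic, a factor of heme-handling red pulp MΦs, and Spib, a factor of B cells and plasmacytoid dendritic cells, were both over 3-fold lower in KO at 12 weeks. Spic was at 1228 and 356 (log2 ratio -1.79) and Spib at 341 and 93.6 (-1.87). Spib thus lay on the same side as 7 of the 8 B and plasma cell markers above.

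Runx3, a Runt factor that acts with TGFβ signals and in cytotoxic lymphocytes, was at 1556, 1463 and 2560 in Het and at 2065, 2102 and 4573 in KO. It was higher in KO at each age, with log2 ratios of 0.41 (0.30 to 0.51), 0.52 (0.39 to 0.65) and 0.84 (0.79 to 0.89). T cell markers moved the same way at 12 weeks, when 6 of the 7 were higher in KO, and 4 of the 5 past the filter. Cd3e was at 39.7 in Het and 93.0 in KO, Cd3g at 26.0 and 154, and Lck at 108 and 303. The sum of the 7 was 1985 and 1739, since Il7r, the one marker lower in KO, made up 1750 and 947 of it. Their part in the Runx3 ratios was not tested. Runx2 was at 162 in Het and 527 in KO at 12 weeks (log2 ratio 1.70), and Runx1 at 3510 and 3748 (0.09), named after its values were seen. Zeb2, a zinc finger repressor that holds tissue MΦ identity, was the steadiest of the 9, at 7595 to 8550 in the 6 libraries, a highest over lowest ratio of 1.13. Its log2 ratios were 0.02, -0.01 and 0.10, the last becoming -0.12 under scaling by total reads.

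Across the 3 ages, Maf, Klf2 and Klf4 were lower in KO each time and Spi1, Cebpb and Runx3 higher each time, which is 6 of 9, beside 34.6% of all genes with 1 sign at the 3 ages. Klf4 at 1 week (-0.01) became 0.02 under TMM scaling. In none of the 9 did all KO libraries lie above or below all Het libraries, which 5.64% of all genes did. The genotype contrast over all 6 libraries, with age as a term, was fitted by limma across the 11067 genes and left 2 residual degrees of freedom. It called 0 genes (0.0%) after Benjamini-Hochberg adjustment, with 853 (7.71%) at an unadjusted p under 0.05, and the adjusted p of Il10rb itself, the lowest of all, was 0.0616 in limma. At the unadjusted level 3 of the 9 were under 0.05. Runx3 was higher in KO by 0.59 (SE 0.16, limma adjusted p = 0.627) and at 3 of 3 ages, Cebpb by 0.71 (SE 0.26, limma adjusted p = 0.627), and Klf2 was lower, at -1.03 (SE 0.32, limma adjusted p = 0.627) and lower at 3 of 3 ages. The difference for Maf was -1.14 with the largest SE of the 9, 0.59 (limma adjusted p = 0.627), and without the 12-week libraries it was -0.18. Without these libraries Irf4 went from -0.71 to -0.27 and Klf2 from -1.03 to -0.65, while Runx3 was at 0.47 and Cebpb at 0.61. The model cannot test whether the genotype ratio differed between ages.

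The second question was how the factors differed with age. Scaling by total reads in place of the authors' size factors put the median log2 ratio of all genes at -0.17 to -0.36 in the 4 age comparisons, beside -0.04 to 0.05 as deposited, and at -0.19 for KO against Het at 12 weeks, so small ratios depend on the scaling. From 1 to 3 weeks 0 of 9 were past 3-fold in Het (6.56% of all genes) and 1 of 9, Klf2, in KO (5.02% of all genes, 3.88% higher). Klf4 was 2.89-fold higher at 3 weeks in Het (log2 ratio 1.53, 1.48 to 1.58) and 2.48-fold in KO (1.31, 1.26 to 1.37). Klf2 was 2.23-fold higher in Het (1.16, 1.12 to 1.19) and 3.71-fold in KO (1.89, 1.85 to 1.93). Both Krüppel-like genes were thus higher at 3 weeks in each genotype, and in Het their relative Klf9 was past 3-fold (57.5 to 268, log2 ratio 2.22). Cebpb was 1.85-fold higher in Het and 1.05-fold in KO, where the log2 ratio of 0.07 became -0.11 under scaling by total reads. Irf4 and Irf8 had ratios near 0 in Het (-0.06 for each, intervals including 0) and of 0.70 and 0.46 in KO.

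In the limma fit over both genotypes, the 3-week against 1-week contrast called 2 of 11067 genes (0.0181%) and none of the 9, of which 2 had an unadjusted p under 0.05 (8.65% of all genes). Klf4 was closest, 64th by p among all genes, with a difference of 1.42 (SE 0.23, limma adjusted p = 0.166) and higher in both genotypes. Klf2 had a difference of 1.52 (SE 0.39, limma adjusted p = 0.330). The libraries of the 2 ages did not overlap for Klf2, Klf4, Zeb2 and Maf, the last being lower at 3 weeks, and this held for 50.2% of all genes. Of 18 dissociation and heat shock genes, whose transcripts are known to be induced while tissue is digested, 18 were higher at 3 weeks than at 1 week in Het and 18 in KO, with median log2 ratios of 0.78 and 0.83. In Het their sum was 746039, 1264450 and 1431790 normalized counts from the youngest to the oldest age, and in KO it was 755043, 1143530 and 1033420. Of the 9 monocyte markers, 8 were higher at 3 weeks than at 1 week in Het and 9 in KO. Their median log2 ratios were 2.38 and 1.91. The sum of these markers went from 6064 to 42757 normalized counts in Het and from 14506 to 35581 in KO. The paper presumes a yolk-sac origin for MΦs of early infancy. It places their replacement by monocyte-derived MΦs at weaning, so age and cell origin cannot be told apart here. The parts of tissue handling and of cell origin in the Klf2 and Klf4 values were not tested.

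From 3 to 12 weeks the ratios of Klf2, Klf4 and Irf4 had opposite signs in Het and KO, a difference that was not tested. In Het 0 of 9 were past 3-fold (6.36% of all genes), with Irf4 2.91-fold higher (log2 ratio 1.54, 1.41 to 1.67), Runx3 1.75-fold higher (0.81, 0.69 to 0.93) and Maf 1.64-fold lower (-0.72, -0.80 to -0.63). In KO 1 of 9 was past 3-fold (14.2% of all genes, 8.45% lower), Maf, which was 11.0-fold lower (-3.46, -3.61 to -3.31). Klf2 had ratios of 0.25 in Het (0.01 under scaling by total reads) and -1.25 in KO. Klf4 had ratios of 0.10 (-0.14 under scaling by total reads) and -0.18, and Irf4 of 1.54 and -0.16. Runx3 was higher at 12 weeks in both, by 0.81 and 1.12, and Spi1 by 0.33 and 0.59. Cebpb had ratios of 0.20 (-0.04 under scaling by total reads) and 0.91. Limma called 3 genes over both genotypes (0.0271%, 20.4% at an unadjusted p under 0.05) and none of the 9, of which 2 had an unadjusted p under 0.05, Runx3 at 0.96 (SE 0.20, adjusted p = 0.148) and Maf at -2.09 (SE 0.73, adjusted p = 0.217).

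**Figure D3:**
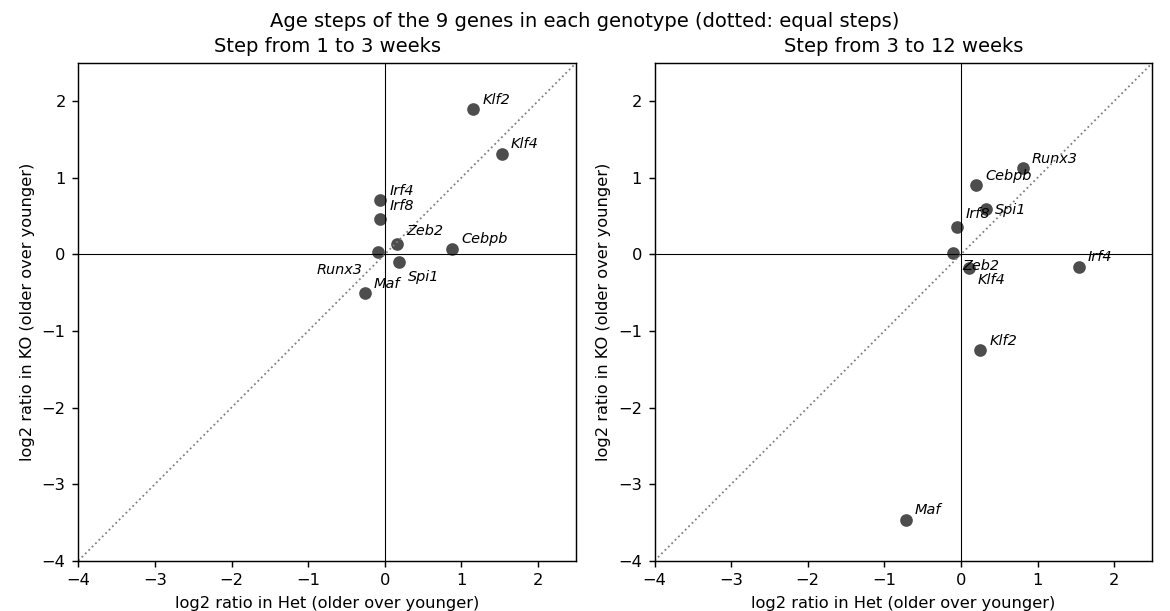
Log2 ratio of the older over the younger library in Het (horizontal axis) against that in KO (vertical axis) for the step from 1 to 3 weeks (left) and from 3 to 12 weeks (right), 1 point per gene, with a dotted line where both are equal. Klf2 and Klf4 lie up and to the right on the left panel, and on the right panel Maf lies at -0.72 and -3.46, Klf2 at 0.25 and -1.25 and Irf4 at 1.54 and -0.16.

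Other transcription factors and known targets were then read from fixed lists. Of 25 family relatives of the 9, 24 were in the table, and at 12 weeks 2 were over 3-fold higher in KO (Irf7 and Runx2) and 3 lower (Cebpa, Spic and Spib), with a median log2 ratio of 0.02. Of 25 other myeloid transcription factors, 1 was higher, Nfil3, at 4724 in Het and 16964 in KO (1.84), and 2 were lower. These were Hes1, a Notch target, at 7730 and 1740 (-2.15) and Mef2c at 3843 and 1003 (-1.94). The median of that list was -0.11. At 1 week 1 of these 25, Nr1h3 (LXRα), was over 3-fold higher in KO, at 80.3 and 264 (1.71), and at 3 weeks none was. The limma genotype contrast called 0 genes in either list, with 2 of 24 and 6 of 25 at an unadjusted p under 0.05.

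Genes known as targets of the 9 factors gave no common direction, with 2 higher and 3 lower by over 3-fold among the 12 of 13 past the filter at 12 weeks and a median of 0.24. S1pr1, a receptor for sphingosine 1-phosphate that Klf2 drives in lymphocytes, was at 1146 in Het and 95.5 in KO (-3.58). Il10, which c-Maf drives, was at 10488 and 2339 (-2.16), and Mgl2, a lectin of Irf4-dependent and Klf4-dependent cells, at 8826 and 816 (-3.43). Il6, a C/EBPβ target, was at 1526 and 9045 (2.57), and Arg1, likewise, at 3.78 (8 reads) and 931 (7.94). Csf1r, a PU.1 target, was at 47225 and 46878 (-0.01). At 3 weeks Il12b, a target of Irf8 and PU.1, was at 80.3 in Het (33 reads) and 885 in KO (3.46). Its ratio was 0.29 at 1 week and 0.75 at 12 weeks, the latter from 1225 and 2056. Arg1 went the other way at 3 weeks, at 43.8 and 2.64 (-4.05, from 18 and 3 reads). Of the 12 targets past the filter, 2 were over 3-fold higher in KO and 1 lower at that age. Ly6c2, which the sort excludes at the surface, was at 9.73 and 285 at 3 weeks (4.87) and at 143 and 2611 at 12 weeks (4.19). In the 3-week Het library 1 read equals 2.43 normalized counts, so 9.73 is a value of few reads. Of the 9 monocyte markers, 4 were higher and 5 lower in KO at 3 weeks, with a median of -0.09. Their sums at that age were 42757 in Het and 35581 in KO. At 12 weeks 6 of 9 monocyte markers were over 3-fold higher in KO, while F13a1 was at 9349 and 1039 (-3.17) and Fn1 at 5876 and 3913 (-0.59). Among the 13 resident MΦ markers, 9 were over 3-fold lower and the median was -2.12.

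**Figure D4:**
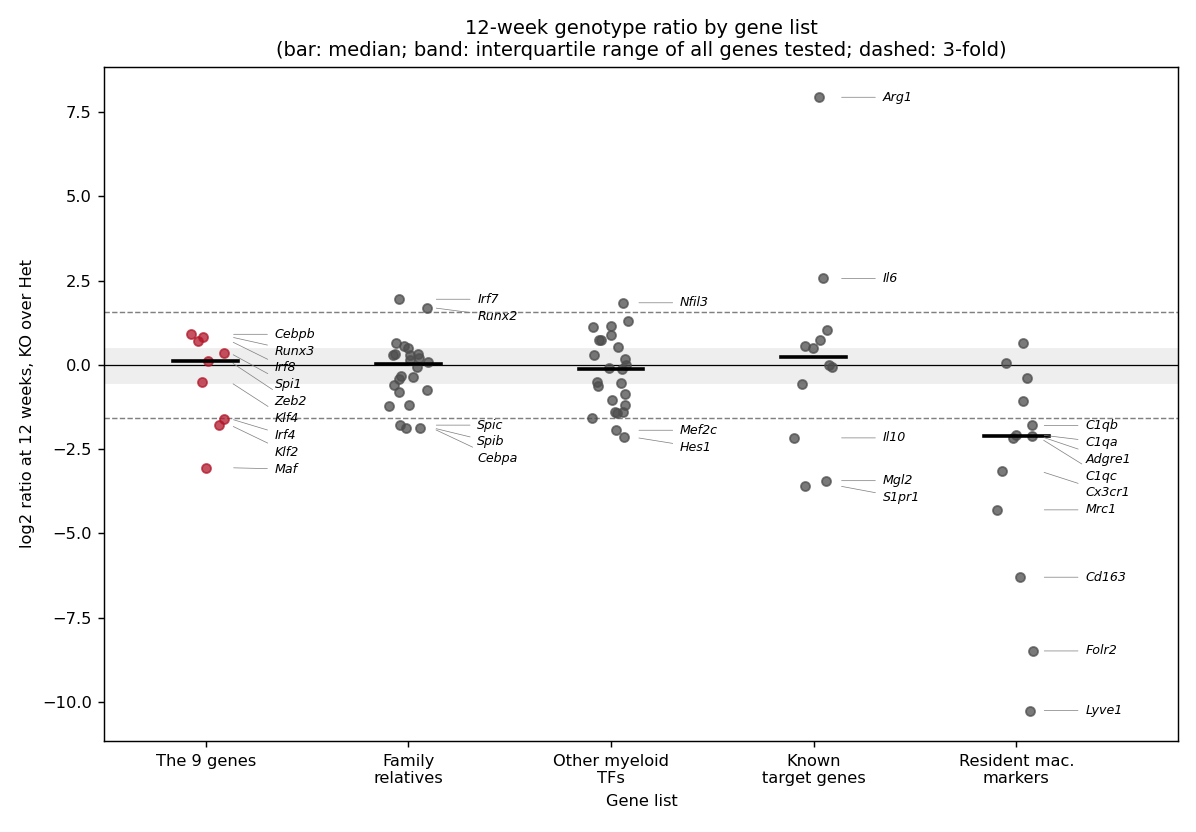
Log2 ratio of KO over Het at 12 weeks (vertical axis) for genes of 5 lists (horizontal axis), 1 point per gene past the filter, with a bar at the list's median, a grey band for the interquartile range of all genes tested and dashed lines at 3-fold. The 9 genes run from -3.05 (Maf) to 0.91 (Cebpb), and the resident MΦ markers have the lowest median, -2.12.

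**Figure D5:**
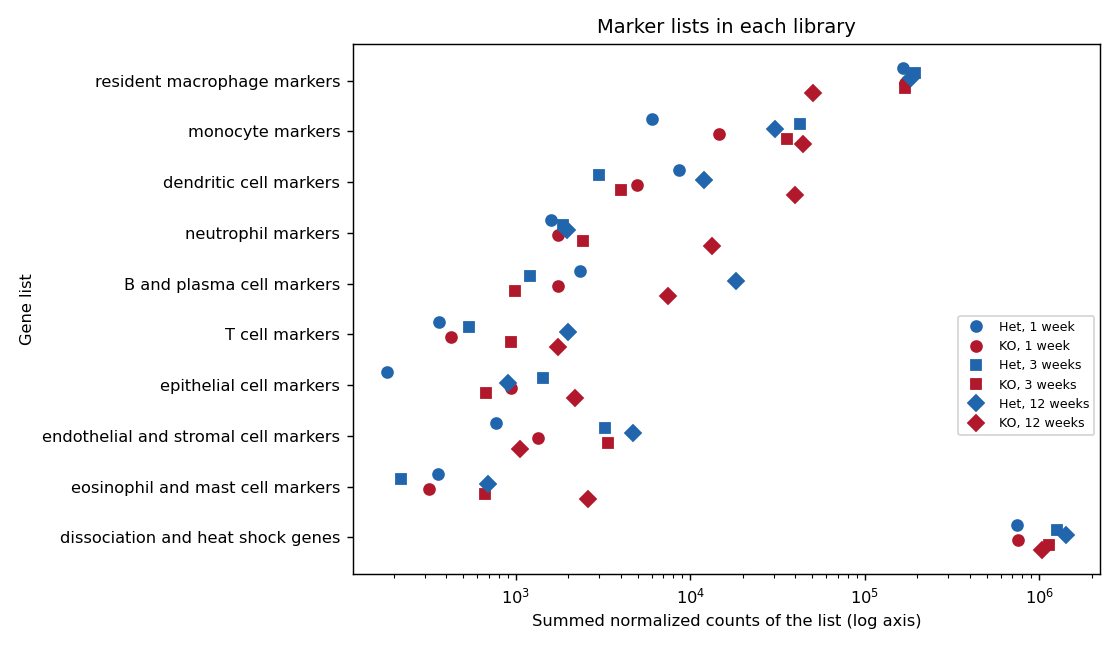
Summed normalized counts (horizontal log axis) of 10 gene lists (vertical axis) in each library, blue for Het and red for KO, with circles for 1 week, squares for 3 weeks and diamonds for 12 weeks. The 12-week KO library is lowest in resident MΦ markers (50677) and highest in neutrophil (13341) and dendritic cell markers (39875, nearly all from Ccr7). The 12-week Het library is highest in B and plasma cell markers (18304).

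Epithelial markers summed to 182 to 2183 normalized counts, with Epcam at 56.5 to 441, and endothelial and stromal markers to 766 to 4703, with Pecam1 at 389 to 1201. Eosinophil and mast cell markers summed to 219 to 2606, with Siglecf at 29.3 to 201. Flt3, a defining dendritic cell gene, was at 44.0 to 329, and Ccr7 made up 38707 of the 39875 of its list in the 12-week KO library. Markers at 0 reads in single libraries included Cd3e and S100a8 in the 1-week Het library and Siglech in the 12-week KO library. In the 12-week libraries 16 of 18 dissociation and heat shock genes were lower in KO than in Het, with a median of -0.42.

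For each factor except Irf8, given with 1, the 2 genes with the most similar profile over the 6 libraries were found among 8933 genes at 50 normalized counts or more in every library, as the smallest root mean square (RMS) difference of log2 values centred on their mean. Maf was most like Cd4, a surface protein of long-lived gut MΦs (RMS 0.15, r = 0.996), and Cx3cr1 (0.16, r = 0.997), against an RMS of 1.40 for its own profile around its mean. Cd4 was at 3227, 2356 and 1712 in Het and at 2422, 2062 and 210 in KO. Klf2 was most like Ehf (0.19, r = 0.985) and Tsc22d3, a glucocorticoid-induced gene (0.19, r = 0.986), Klf4 like Myadm (0.15, r = 0.976) and the lectin gene Clec10a (0.15, r = 0.984), and Irf4 like Gimap6 (0.13, r = 0.982) and Hdac7 (0.21, r = 0.986). Runx3 was most like Lrrc59 and Slc15a3 (RMS 0.06 for each), Irf8 like Pdha1 (0.07), Spi1 like Rad23b and Rwdd1 (0.04 for each), Zeb2 like Cnpy3 and Habp4 (0.02 and 0.03), and Cebpb like Tmem189 (0.03) and Grhpr (0.12). Among the 9 themselves, the smallest RMS was that of Irf8 and Zeb2 (0.23, r = 0.65). Around their own means the RMS was 0.27 for Irf8 and 0.07 for the nearly flat Zeb2, so this pair is not a close match. Klf2 and Klf4 had an RMS of 0.51 (r = 0.81), and Spi1 and Runx3 of 0.29 (r = 0.96). By RMS among 8932 genes, Klf4 was in place 76 for Klf2 and Runx3 in place 211 for Cebpb. Zeb2 was only in place 1483 for Irf8, and Runx3 only in place 2781 for Spi1. Maf and Runx3 had an r of -0.93. These values describe 6 libraries that differ in depth and cell makeup as given above, and within a library all genes share both.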

How the data were processed

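RNA of sorted colonic P3/P4 MΦs was sequenced in 6 libraries, single-end. Values in the deposited table are normalized signal and not raw counts. To make them, the authors used TopHat (default settings, mm10) and HTSeq, then scaled by DESeq size factors, and zeros appear as 1. Trim Galore is also listed in the submitters' processing notes. Versions, annotation and strand setting are not given in the sources used here, and the labels and the methods differ on the library kit (SMART-Seq or oligo dT beads) and on the number of mice per 1-week pool. Apart from 1, all values of a library were multiples of 1 step (tolerance 0.01), 0.473 to 2.43 normalized counts, which returned the reads. A planned count model on these reads was left out, because with zeros replaced by 1 the table was not accepted as count data.

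The members and gene lists were chosen with earlier results of these data known. All 9 members were named in every comparison. Other genes were named from fixed lists where past 3-fold in a comparison in which a relative is described, or as defining markers, and genes named outside this rule were chosen after their values were seen. Results on 2 such genes are not reported here. Genes at 50 normalized counts or more in at least 1 library were tested. Contrasts of genotype (with age as a term) and age (with genotype as a term) were fitted by limma 3.58.1 (R 4.3.3) on log2(value + 1), moderated with a mean-variance trend and adjusted by Benjamini-Hochberg at 0.05, so fold changes of low genes are understated. The error of these fits is the variation of an effect between ages or genotypes, in single libraries, which may be technical. Ratios of 2 libraries have no test. Their exact Clopper-Pearson 95% intervals cover counting error only, and reads carry no molecular identifiers. Gene positions and exon lengths came from GENCODE M21 (GRCm38), in which 14085 of 14097 genes were found, and promoters from RefSeq (GRCm38.p6). Intervals were computed in scipy 1.17.1, tables in pandas 2.3.3 and plots in matplotlib 3.10.9, under Python 3.11.15. Scripts were tested on simulated data. Alternatives were a pseudocount of 10, no filter, TMM scaling, scaling by total reads, leaving out each age and dropping the age term.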

Additional observations from a re-analysis of the deposited data

Results flagged for a closer look

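In 6 cases, covering 5 of the 9 genes, the libraries of 2 groups moved in opposite directions under the same contrast, with both 95% counting intervals clear of 0. Such cases were not counted over all genes, so these counts have no share beside them and do not set the 9 apart. Pairs of opposite sign in which either interval included 0, such as the genotype ratio of Irf4 at 1 week (-0.65) and 3 weeks (0.11), are not among them. None of these differences was tested, since each group is 1 library and the interaction leaves no residual degrees of freedom. The step from 3 to 12 weeks of Irf4 was 1.54 in Het and -0.16 in KO on the log2 scale, a difference of -1.70. That of Klf2 was 0.25 and -1.25, a difference of -1.50, and that of Klf4 0.10 and -0.18, a difference of -0.28. The step from 1 to 3 weeks of Spi1 was 0.18 in Het and -0.09 in KO, a difference of -0.28. The genotype ratio of Irf8 was -0.21 at 1 week, 0.30 at 3 weeks (a difference of 0.52) and 0.72 at 12 weeks (a difference of 0.93). The Klf4 and Spi1 values are small, and the Klf4 step in Het turned to -0.14 under scaling by total reads. Under the same scaling the Het step of Klf2 went from 0.25 to 0.01 and that of Spi1 from 0.18 to 0.05, so these cases also depend on the scaling. Groups of 1 library could not be checked for outlying samples.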

How the results depend on the processing

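Groups of 1 library set the limit of precision, and the fewest reads on any of the 9 genes in a library were the 404 of Maf. The 9 genes kept their direction and their side of the threshold in 140 of 144 recomputed limma values, and none was called under any setting (adjusted p from 0.122 to 0.999). The 4 exceptions changed sign under scaling by total reads, an alternative added to these fits after seeing the data: Zeb2 in KO against Het (-0.0485), Spi1 (-0.12) and Zeb2 (-0.0084) at 3 against 1 week, and Irf8 at 12 against 3 weeks (-0.17). Of 189 recomputed ratios of 2 libraries, 52 moved outside the counting interval, and 10 of 0.36 or less changed sign, 8 under scaling by total reads and 2 under TMM scaling, for Zeb2, Cebpb, Runx3, Irf8 and Klf4. The 3 genes past 3-fold at 12 weeks stayed past it under each setting, with Irf4 at -1.59 to -1.82, and Klf2 joined Maf in KO at 12 against 3 weeks under scaling by total reads. Genes called over all genes moved more. For KO against Het limma called 1 with a pseudocount of 10, 1 without the age term and 3 to 61 when an age was left out (20 without 1 week, 3 without 3 weeks, 61 without 12 weeks). A pseudocount of 10 gave 8 calls at 3 against 1 week and 8 at 12 against 3 weeks, and scaling by total reads 0 at the latter. Genes past 3-fold numbered 127 and 85 for KO against Het at 1 and 3 weeks, 444 in Het and 316 in KO at 3 against 1 week with a pseudocount of 10. Without the filter they numbered 1124, 895 and 2947 for KO against Het at 1, 3 and 12 weeks, 1657 and 1964 for the steps to 3 and 12 weeks in Het, and 1413 and 2753 in KO, because genes near 0 enter. Scaling by total reads took the higher share from 636 of 1571 to 424 of 1770 in KO and from 599 of 704 to 495 of 660 in Het at 12 against 3 weeks. A planned count model on the recovered reads was not run, so how many genes it would call is not known. The genotype fit sets the libraries of each age against each other through its age term, and without that term it called the 1 gene given above.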
